A study of Mus musculus with 18 samples.

Results

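The 39 Hox genes of the mouse, the homeobox genes of the Hoxa, Hoxb, Hoxc and Hoxd clusters, were followed in mammary tumors and normal mammary glands. They were all genes whose symbol is Hox, a cluster letter from a to d and a number, 39 of the 55450 genes in the count file. The number is the paralog group, which gives a gene's place along its cluster and its closest relatives in the other clusters. Hox proteins are transcription factors that give cells their position along the body axis. During development the genes of a cluster are switched on in order, from the 3′ end (low numbers, toward the head) to the 5′ end (high numbers, toward the tail), and Polycomb and Trithorax chromatin complexes then keep that choice. In the mammary gland several Hox genes are needed for normal gland growth, among them the paralog group 9 genes Hoxa9, Hoxb9 and Hoxd9, and Hoxa5 has been described as a tumor-restraining gene in breast cells.

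The samples were 18 female C57Bl/6 mice with 1 library each, and the labels' mouse numbers make the replicates separate animals. B1/P/Rbf tumors (n = 5) had the genotype Brca1fl/fl/Trp53fl/fl/TgK18GT121Tg/+, B1/P tumors (n = 5) Brca1fl/fl/Trp53fl/fl, and P/Rbf tumors (n = 5) Trp53fl/fl/TgK18GT121Tg/+. The 3 normal glands came from wild type mice. Thus all 15 tumors carried floxed Trp53, and the T121 fragment, which binds and inactivates pRb, p107 and p130, was present in both Rbf groups. Cre came from an adenovirus with a CMV promoter, injected into the duct of an abdominal gland of adult females, so the recombined cells were those the virus reached. T121 was driven by the keratin 18 promoter, and the count file holds no entry for it. Age at collection was not given in the sources used here.

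The total expected count per sample was 27661173 to 37794889. As a check of the labels, Trp53 was at 9.82 to 19.7 CPM (the count scaled by library size) in B1/P/Rbf, 6.75 to 24.3 in B1/P and 8.86 to 13.8 in P/Rbf tumors, below all 3 glands (54.4 to 71.8). Brca1 was at 21.1 to 45.0, 8.13 to 27.9 and 44.9 to 116 CPM in the same order and at 4.61 to 5.99 CPM in the glands, with B1/P/Rbf tumor 3 (45.0) just above the lowest P/Rbf tumor. Counts were per gene, not per floxed exon, so these values check the labels only in part. The summed CPM of 10 luminal markers was 2546 to 2991 in the glands and 1088 to 13087 in the tumors, and no marker of the luminal list was at 0 throughout a group. Bulk RNA does not tell fewer cells of a type from less RNA per cell, for any gene below.

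In the glands, the Hox genes of the middle paralog groups led. Divided by exon length, Hoxd8 had the highest level (11.4 ± 2.33 CPM per kb, SD, n = 3), followed by Hoxc8 (9.39 ± 1.13), and their SDs overlap. Hoxc6 (5.46 ± 0.934), Hoxa7 (4.80 ± 0.765), Hoxc10 (4.31 ± 0.563) and Hoxd9 (4.15 ± 0.788) came next, each within the SD of its neighbour, and Hoxc8 exceeded Hoxc6 by more than their SDs. Every gland had 23 members above 1 CPM. In tumors that number was 5 to 16 (B1/P/Rbf), 5 to 20 (B1/P) and 3 to 12 (P/Rbf).

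Of the 39 members, 29 had counts high enough for the test. The other 10 were Hoxa11, Hoxa13, Hoxb1, Hoxb13, Hoxc12, Hoxd1, Hoxd3, Hoxd11, Hoxd12 and Hoxd13, mostly genes of paralog groups 11 to 13. Hoxd12 had no count in any sample, and Hoxd11 and Hoxd13 had 2 and 1 in all 18 samples together. Hoxb1, Hoxc12, Hoxd1 and Hoxd3 stayed at or below 0.25 CPM in every sample. Hoxa11, Hoxa13 and Hoxb13 were each high in a single tumor and are described with those tumors. The filter asked for 0.296 CPM in 3 samples. Of the 29, Hoxa2, Hoxa4, Hoxa6 and Hoxd10 met it only through the glands and Hoxc13 only through the B1/P tumors, so these 5 could be tested only because they were high in that group, and their direction against it gives no support. Hoxc11 met it through 2 B1/P tumors and 1 P/Rbf tumor and no gland, so its direction against the glands gives no support either. A count of 0 allows up to 3 counts, at most 0.117 CPM in a gland, and this covers counting error only.

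**Figure D1:**
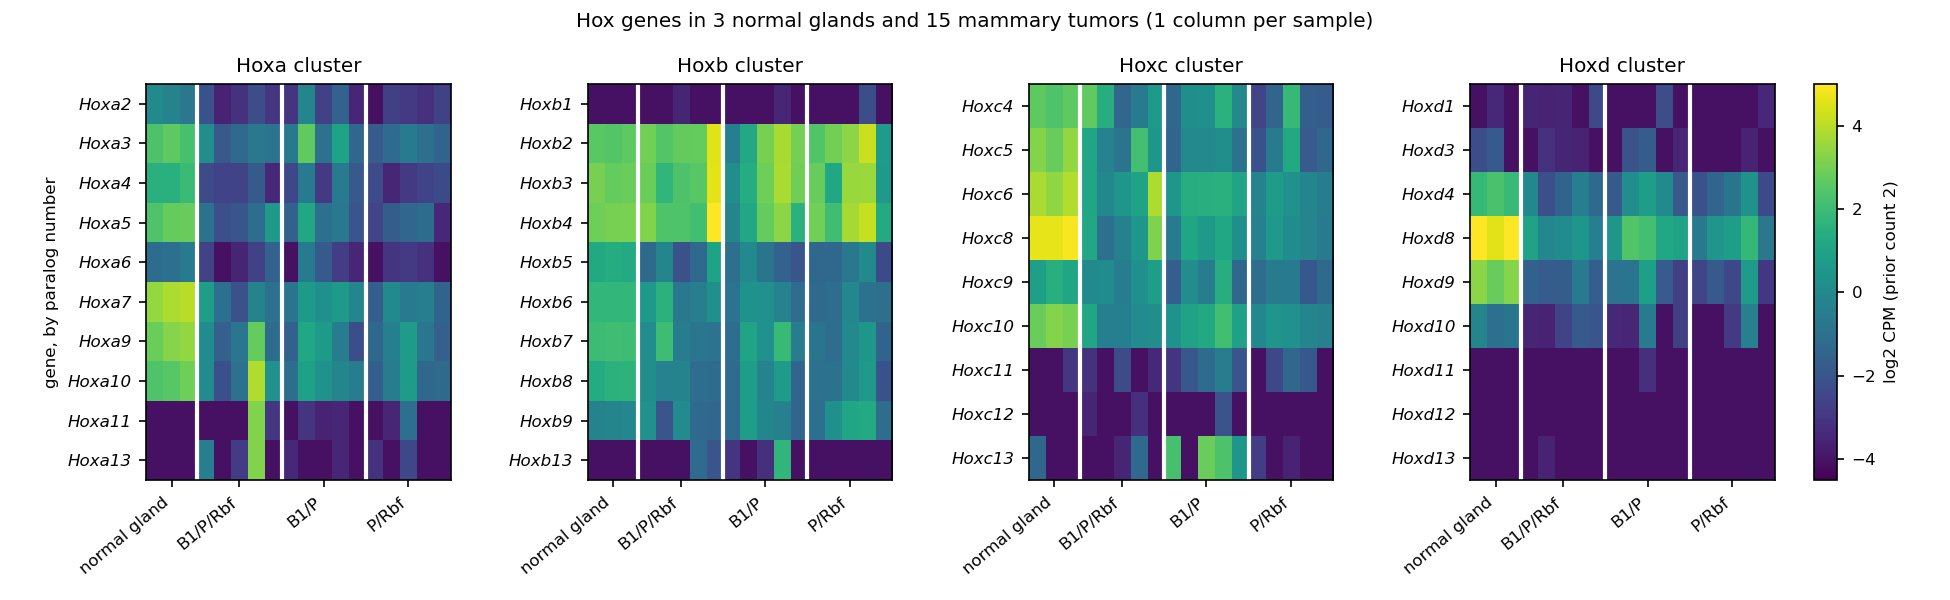
Log2 CPM (prior count 2, color) of 38 Hox genes (rows, by cluster and paralog number) in 3 normal glands and in 5 tumors of each genotype (B1/P/Rbf, then B1/P, then P/Rbf; columns, in sample order within a group). Gland columns are bright from the low to the middle paralog numbers, and tumor columns are darker there except at Hoxb2 to Hoxb4 and Hoxb9. Single tumors stand out at Hoxa9 to Hoxa13 and Hoxb13 and 4 of 5 B1/P tumors at Hoxc13.

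The comparison with the normal gland asks which Hox genes differ once a tumor has formed. Of 29 tested members, 22 were lower in at least 1 tumor group and none was higher, where 27.1% of all tested genes were called lower and 26.9% higher in at least 1 group. The 22 include Hoxa2, Hoxa4 and Hoxa6, which passed the filter only through the glands, where they are high, so their falls give no support. In the counts that follow, Hoxa4 is included in all 3 groups, Hoxa2 in B1/P/Rbf and P/Rbf and Hoxa6 in P/Rbf tumors. Of the 29, 13 fell in B1/P/Rbf tumors and none rose (edgeR quasi-likelihood test, Benjamini-Hochberg adjusted p of 0.05 or less over all 19186 genes tested), where 20.0% of all tested genes were called lower and 17.1% higher. In B1/P tumors 13 fell and none rose, with 16.9% of all tested genes called lower and 16.8% higher. In P/Rbf tumors 21 fell and none rose, with 20.3% called lower and 17.4% higher. The members' median log2 fold change was -2.14, -1.84 and -3.05 in this order, against 0.05, 0.12 and 0.05 for all tested genes. These medians include Hoxa2, Hoxa4, Hoxa6 and Hoxd10, which passed the filter only through the glands. The B1/P/Rbf median is the value of Hoxa6 and the B1/P median that of Hoxd10, so these medians give no support of their own. The 3 comparisons use the same 3 glands, so they are not independent of each other. Leaving out TMM scaling moved the median of all tested genes to 0.42, 0.47 and 0.33; member calls were then 12 lower in B1/P/Rbf, 12 lower and 2 higher (Hoxc11 and Hoxc13) in B1/P, and 20 lower in P/Rbf tumors.

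Genes called lower in all 3 comparisons were Hoxa4, Hoxa5, Hoxa7, Hoxc5, Hoxc8, Hoxc10, Hoxd4, Hoxd8 and Hoxd9. For these 9 and for Hoxa9, Hoxb5, Hoxb6 and Hoxb8, every one of the 15 tumors was below every gland. Hoxa4 among them passed the filter only through the glands, where it is high, so its place here gives no support. Non-overlapping groups, with the tumors lower, were found for 19 of 29 members in B1/P/Rbf, 17 in B1/P and 22 in P/Rbf tumors, where 27.4%, 22.7% and 26.5% of all tested genes had such groups. Some members in these counts passed the filter only through the glands and give no support. They are Hoxa4 in all 3 groups, Hoxa2 and Hoxa6 in B1/P/Rbf and P/Rbf tumors and Hoxd10 in B1/P/Rbf tumors. No tested member had tumors above the glands without overlap, against 23.1%, 18.7% and 20.0% of all tested genes. An exact two-sided permutation test of 5 tumors against 3 glands cannot give less than p = 0.0357, the value for each of these genes.

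Markers of other tissues moved with the same comparison. All 8 adipocyte, all 7 lymphocyte and all 6 skeletal muscle markers were called lower in each tumor group. Summed adipocyte markers were 24194 to 30860 CPM in the glands and 6.43 to 241 CPM in the tumors, and lymphocyte markers 369 to 510 against 1.75 to 31.1 CPM. Skeletal muscle markers were 21820 to 43576 CPM in the glands and 1.84 to 568 CPM in the tumors, with B1/P tumor 5 the highest tumor. Of these, Ms4a1 of the lymphocyte and Ckm of the muscle list passed the filter only through the glands. Summed fibroblast markers overlapped, at 1605 to 2913 CPM in the glands, 834 to 4784 in B1/P/Rbf, 2623 to 12899 in B1/P and 1276 to 4026 in P/Rbf tumors, sums led by the collagen genes Col1a1, Col1a2 and Col3a1. Of the 9 fibroblast markers, Dpt was called lower in all 3 groups (211 to 303 CPM in the glands, 0.72 to 33.9, 5.56 to 91.8 and 0.44 to 7.76 in the tumors, no overlap) and Lum in the T121 groups, while Col1a1, Col1a2, Fbln1 and Pdgfrb were called higher in B1/P tumors. With each of 8 samples left out in turn, the B1/P call of Dpt was lost in 7 cases, and DESeq2 gave no adjusted p for Dpt. Of the endothelial markers, Pecam1, Kdr and Tek were called lower in all 3 groups, as was Myh11 of the myoepithelial list. In that list Krt14 was called higher in B1/P and P/Rbf tumors and Krt17 in B1/P tumors. Oxtr, also of that list, was called lower in both T121 groups, and Mylk and Acta2 were called lower in B1/P/Rbf tumors. The macrophage marker Cd68 and the luminal markers Epcam and Cdh1 were called higher in all 3 groups. Luminal Esr1 and Gata3 were called lower in B1/P tumors. Leaving out single samples lost some of these calls. The part of these tissues and cell types in the Hox differences was not tested.

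**Figure D2:**
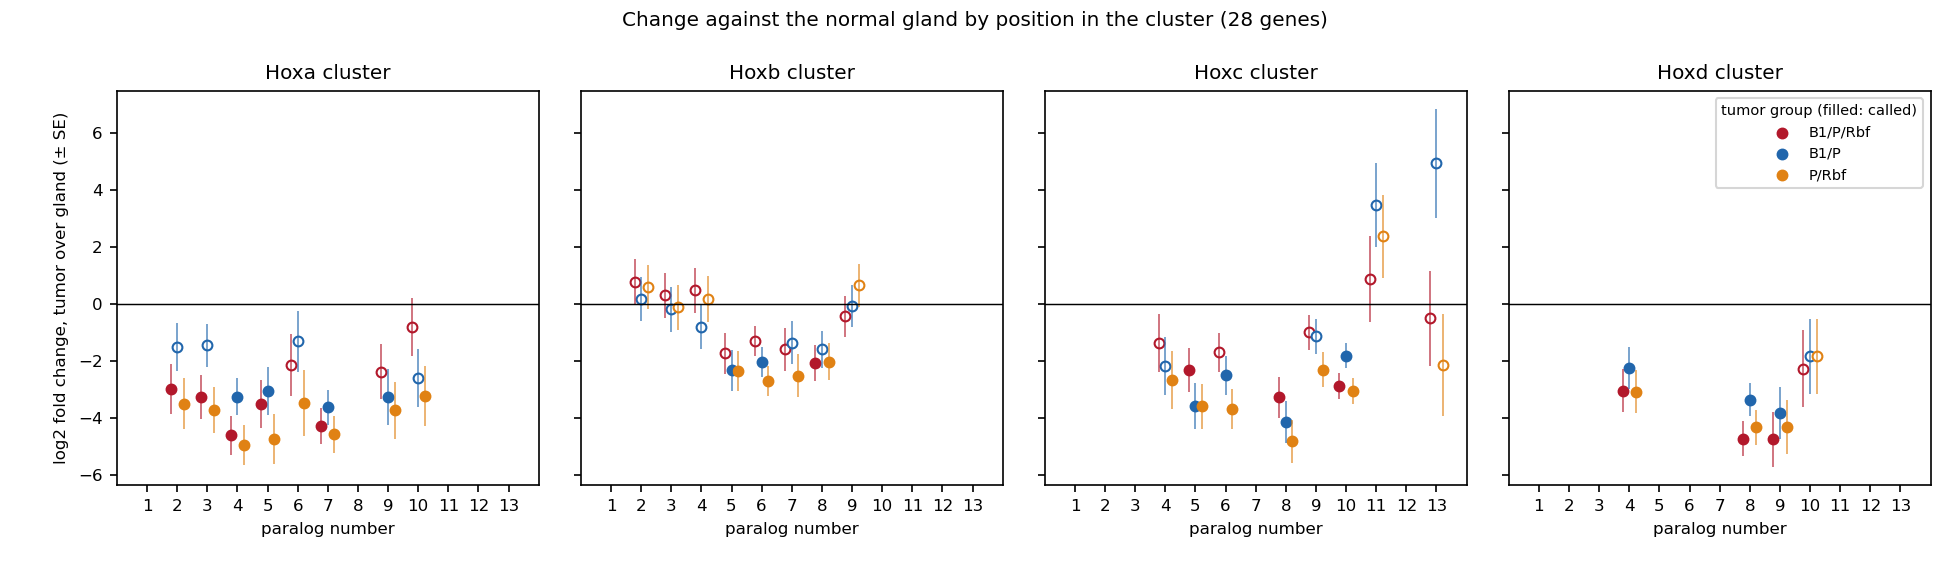
Log2 fold change of each tumor group against the normal gland (vertical axis, ± SE) by paralog number (horizontal axis) for 28 tested Hox genes, with 1 panel per cluster and filled circles for adjusted p of 0.05 or less. Points lie below 0 along Hoxa, Hoxc 4 to 10 and Hoxd, while Hoxb2, Hoxb3, Hoxb4 and Hoxb9 lie near 0 and Hoxc11 and Hoxc13 lie above 0 in B1/P tumors.

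The Hoxd cluster (9 members, chr2:74668310-74765142 in GRCm38, plus strand) holds the member with the highest gland level per kb. This gene, Hoxd8, belongs to the central paralog groups, which pattern the trunk, and 3 of the 4 tested Hoxd genes fell in every tumor group. Hoxd8 was at 36.2, 24.0 and 33.4 CPM in glands 1 to 3. It was at 1.93, 0.86, 1.02, 1.34 and 0.68 CPM in B1/P/Rbf tumors 1 to 5, 1.37, 5.33, 4.40, 2.16 and 1.89 in B1/P tumors and 0.58, 1.32, 1.72, 3.50 and 0.54 in P/Rbf tumors. The highest tumor, B1/P tumor 2, thus stood below the lowest gland by more than the spread of either group. Hoxd8 fell, with log2 fold changes of -4.74 (SE 0.61, adjusted p = 1.57e-05) in B1/P/Rbf, -3.36 (SE 0.58, adjusted p = 3.20e-04) in B1/P and -4.34 (SE 0.60, adjusted p = 3.32e-05) in P/Rbf tumors.

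Its neighbour Hoxd9, a paralog group 9 gene, was at 10.0, 6.94 and 9.61 CPM in the glands and at 0.28, 0.24, 0.25, 0.58 and 0.26 in B1/P/Rbf, 0.48, 0.50, 1.76, 0.24 and 0.095 in B1/P and 0.12, 0.22, 0.13, 1.63 and 0.068 in P/Rbf tumors. It fell, with log2 fold changes of -4.76, -3.84 and -4.34 (adjusted p = 9.97e-04, 0.00438 and 0.00174), and B1/P tumor 3 and P/Rbf tumor 4 were the highest tumors. The same 2 tumors were highest in their groups for Hoxd10 and Hoxd4. P/Rbf tumor 4 also had the highest summed endothelial markers of the 18 samples (483 CPM), and their part in these values was not tested. Hoxd4, at the 3′ side of the cluster, was at 3.56, 4.71 and 3.79 CPM in the glands, 0.91, 0.16, 0.30, 0.68 and 0.36 in B1/P/Rbf, 0.22, 1.07, 1.73, 0.95 and 0.22 in B1/P and 0.17, 0.32, 0.51, 1.21 and 0.14 in P/Rbf tumors. No tumor reached a gland, and Hoxd4 fell, with log2 fold changes of -3.05, -2.25 and -3.08 (adjusted p = 0.00499, 0.0280 and 0.00443). Its B1/P call was lost without TMM scaling and without B1/P tumor 1 or 5 or any 1 gland (adjusted p up to 0.0829), and its exons overlap those of Hoxd3 on the same strand. Hoxd10 was under 1 CPM in every sample, 0.43 to 0.82 CPM in glands and 0 to 0.71 CPM in tumors, and was not called by edgeR in any comparison. In B1/P/Rbf tumors all 5 were below all glands, and the fit of only these 2 groups called it lower (adjusted p = 0.0201), a gene that passed the filter only through the glands.

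RefSeq promoter windows, 250 bases before to 50 after the start on GRCm38.p6, were held for 22 of the 39 members. The 250 bases before the start are printed here and further on for 5 members that the results turn on, to set a gene that fell in all groups (Hoxd8, Hoxa5) beside one that did not (Hoxb4), a close neighbour of the latter (Hoxb8) and one that was high in a single tumor (Hoxa13). Letters run 5′ to 3′ on the gene's strand, and CpG dinucleotides, the sites of DNA methylation, are in capitals. The Hoxd8 window (chr2:74704365-74704614, plus strand) holds 6 CpG, the median of all 32841 windows of this length, and Hoxa5 (chr6:52204588-52204837, minus strand) holds 28.
Hoxd8: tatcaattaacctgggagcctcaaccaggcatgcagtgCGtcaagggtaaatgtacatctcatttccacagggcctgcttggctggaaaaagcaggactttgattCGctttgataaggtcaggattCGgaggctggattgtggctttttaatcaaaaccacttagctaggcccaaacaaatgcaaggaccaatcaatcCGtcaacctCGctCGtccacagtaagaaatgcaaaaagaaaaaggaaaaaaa
Hoxa5: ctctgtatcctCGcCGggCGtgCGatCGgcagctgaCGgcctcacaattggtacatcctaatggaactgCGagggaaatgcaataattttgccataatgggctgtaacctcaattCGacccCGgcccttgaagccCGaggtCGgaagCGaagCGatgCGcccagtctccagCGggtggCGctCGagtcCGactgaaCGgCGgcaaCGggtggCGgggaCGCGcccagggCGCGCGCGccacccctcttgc

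The Hoxa cluster (11 members, chromosome 6, minus strand) had calls along most of its length. Hoxa2 to Hoxa7 fell in P/Rbf tumors, and Hoxa4, Hoxa5 and Hoxa7 fell in all 3 groups. Hoxa5 was at 5.12, 6.64 and 6.91 CPM in the glands. It was at 0.45, 0.16, 0.19, 0.41 and 1.53 CPM in B1/P/Rbf, 0.29, 2.25, 0.43, 0.56 and 0.19 in B1/P and 0.12, 0.25, 0.33, 0.39 and 0.034 in P/Rbf tumors, with no overlap. Hoxa5 fell, with log2 fold changes of -3.50 (SE 0.85, adjusted p = 0.00385), -3.06 (SE 0.83, adjusted p = 0.00948) and -4.75 (SE 0.89, adjusted p = 4.99e-04) in this order.

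Hoxa7 was at 11.4, 14.3 and 15.7 CPM in the glands, 1.70, 0.43, 0.17, 0.79 and 0.45 in B1/P/Rbf, 0.48, 1.54, 1.13, 1.54 and 0.85 in B1/P and 0.26, 0.98, 0.63, 0.68 and 0.31 in P/Rbf tumors. Hoxa7 fell, with log2 fold changes of -4.28, -3.63 and -4.58 (adjusted p = 6.33e-05, 2.76e-04 and 3.63e-05), and no tumor came near the lowest gland. Hoxa4 was at 2.81, 2.81 and 3.83 CPM in the glands, 0.14, 0.11, 0.11, 0.23 and 0.032 in B1/P/Rbf, 0.13, 0.62, 0.075, 0.59 and 0.22 in B1/P and 0.14, 0.032, 0.076, 0.11 and 0.14 in P/Rbf tumors. Without overlap, it fell, with log2 fold changes of -4.61, -3.25 and -4.95 (adjusted p = 6.41e-05, 0.00103 and 3.86e-05). Hoxa4 passed the filter only through the glands, where it is high, so this fall gives no support.

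Toward the 3′ end of the cluster, the hindbrain-patterning genes Hoxa2 and Hoxa3 were at the gland level in 1 tumor. Hoxa3 was at 5.00, 6.15 and 4.60 CPM in the glands and at 0.57, 6.28, 0.45, 1.98 and 0.35 CPM in B1/P tumors 1 to 5. B1/P tumor 2 was thus the only tumor above a gland, and B1/P tumor 4 followed. Across B1/P/Rbf (1.08, 0.22, 0.36, 0.56 and 0.49 CPM) and P/Rbf tumors (0.23, 0.38, 0.61, 0.45 and 0.31 CPM) all were below the glands, and Hoxa3 fell, with log2 fold changes of -3.27 (SE 0.79, adjusted p = 0.00368) and -3.72 (SE 0.80, adjusted p = 0.00154). B1/P tumor 2 was also the highest tumor for Hoxa2 (0.83 CPM against 0.54 to 0.98 in the glands) and Hoxa5 (2.25). Its summed fibroblast markers, 12899 CPM, and macrophage markers, 919 CPM, were the highest of the 18 samples, and their part in these values was not tested. In edgeR neither Hoxa2 nor Hoxa3 was called in B1/P tumors (adjusted p = 0.173 and 0.153), while limma-voom called Hoxa3 lower there (0.0313). Hoxa2 fell, with log2 fold changes of -2.98 in B1/P/Rbf and -3.50 in P/Rbf tumors (adjusted p = 0.0135 and 0.00580). Hoxa6 was under 1 CPM throughout (0.39 to 0.61 CPM in glands) and in P/Rbf tumors fell by 3.48 (SE 1.15, adjusted p = 0.0248). Both Hoxa2 and Hoxa6 passed the filter only through the glands, where they are high. Without single libraries these calls were not all kept: Hoxa2 in B1/P/Rbf was lost without gland 1 (adjusted p = 0.0522), and Hoxa6 without P/Rbf tumor 1 or any 1 gland (up to 0.0804) and in limma-voom (0.0840).

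Hoxa9 and Hoxa10, the latter known for its role in the uterus, fell in P/Rbf tumors and, for Hoxa9, in B1/P tumors. Hoxa9 was at 7.19, 9.65 and 11.1 CPM in the glands, 1.02, 0.27, 0.52, 6.75 and 0.39 in B1/P/Rbf, 0.29, 2.16, 1.56, 0.65 and 0.16 in B1/P and 0.35, 0.69, 1.62, 0.53 and 0.27 in P/Rbf tumors. Hoxa9 fell, with log2 fold changes of -3.27 (SE 0.98, adjusted p = 0.0169) in B1/P and -3.74 (SE 1.00, adjusted p = 0.00732) in P/Rbf tumors. Hoxa10 was at 5.12, 5.66 and 7.48 CPM in the glands, 0.99, 0.16, 0.47, 14.6 and 1.17 in B1/P/Rbf, 0.41, 1.87, 1.21, 0.86 and 0.66 in B1/P and 0.26, 0.66, 1.57, 0.34 and 0.37 in P/Rbf tumors. In P/Rbf tumors it fell by 3.23 (SE 1.04, adjusted p = 0.0213). The Hoxa9 call in B1/P tumors was lost without gland 3 (adjusted p = 0.0505), and the Hoxa10 call without P/Rbf tumor 1 (0.0507) or gland 3 (0.0620). Neither was called by edgeR in B1/P/Rbf tumors, though Hoxa9 was called lower there by DESeq2 (adjusted p = 0.0288) and limma-voom (0.00566), and Hoxa10 was called lower in B1/P tumors by limma-voom (0.0474) and the fit of only the 2 groups (0.00471). In B1/P/Rbf tumors, tumor 4 stood far above the other 4 for both.

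The Hoxc cluster (9 members, chr15:102921103-103036852, plus strand) holds the gene with the highest level per kb after Hoxd8. Hoxc8 was at 24.8, 24.7 and 30.3 CPM in the glands. It was at 2.21, 0.43, 0.74, 1.40 and 8.93 CPM in B1/P/Rbf, 0.60, 2.04, 1.51, 2.19 and 1.10 in B1/P and 0.72, 1.48, 1.04, 0.82 and 0.61 in P/Rbf tumors, all below the glands, with B1/P/Rbf tumor 5 apart from the other 14. Hoxc8 fell, with log2 fold changes of -3.28 (SE 0.72, adjusted p = 0.00186), -4.15 (SE 0.74, adjusted p = 4.07e-04) and -4.83 (SE 0.76, adjusted p = 1.07e-04).

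Hoxc6, a gene known to respond to estrogen in breast cells, was at 13.9, 10.6 and 14.9 CPM in the glands and at 2.04, 0.89, 1.35, 1.90 and 14.0 CPM in B1/P/Rbf tumors. Therefore B1/P/Rbf tumor 5 was within the gland range, the other 4 far below it, and the group had -1.70 (SE 0.68, adjusted p = 0.0580), which limma-voom called lower (0.00302). B1/P (1.40, 2.64, 2.71, 2.81 and 1.99 CPM) and P/Rbf tumors (0.81, 1.61, 1.16, 0.82 and 0.65 CPM) did not overlap with the glands, and Hoxc6 fell, with log2 fold changes of -2.51 and -3.70 (adjusted p = 0.00967 and 6.19e-04).

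Hoxc10, a lumbar patterning gene, was at 7.11, 9.26 and 8.29 CPM in the glands, 2.07, 0.70, 0.69, 0.99 and 1.07 in B1/P/Rbf, 1.21, 1.93, 2.36, 4.26 and 1.86 in B1/P and 0.89, 1.32, 1.19, 0.84 and 0.71 in P/Rbf tumors. It fell, with log2 fold changes of -2.89 (SE 0.45, adjusted p = 1.05e-04), -1.82 (SE 0.44, adjusted p = 0.00461) and -3.04 (SE 0.45, adjusted p = 6.50e-05). Hoxc5 was at 9.46, 6.81 and 10.9 CPM in the glands, 2.07, 0.76, 0.50, 4.36 and 1.40 in B1/P/Rbf, 0.32, 0.92, 0.93, 1.09 and 0.47 in B1/P and 0.17, 0.63, 2.33, 0.24 and 0.34 in P/Rbf tumors. B1/P/Rbf tumor 4 was the highest tumor, and Hoxc5 fell, with log2 fold changes of -2.31, -3.59 and -3.60 (adjusted p = 0.0266, 0.00250 and 0.00205). Hoxc5 and Hoxc10 share exon sequence on the same strand in the annotation, so reads could be divided between them. The Hoxc5 call in B1/P/Rbf tumors was lost without TMM scaling and without tumor 2, 3 or 5, gland 1 or gland 3 (adjusted p up to 0.0843). In edgeR with all 4 groups, Hoxc4 and Hoxc9 were called only in P/Rbf tumors, where they fell, with log2 fold changes of -2.69 and -2.30 (adjusted p = 0.0477 and 0.00758). Hoxc4 was at 6.18, 5.10 and 6.23 CPM in the glands, 6.30, 2.62, 0.33, 0.58 and 1.46 in B1/P/Rbf, 0.35, 1.13, 1.13, 2.93 and 0.91 in B1/P and 0.12, 0.32, 3.57, 0.26 and 0.24 in P/Rbf tumors. P/Rbf tumor 3 stood apart from its group, and the call was lost without any 1 gland or P/Rbf tumor 1, 2, 4 or 5 (adjusted p up to 0.104), without TMM scaling, with no filter and with only the 2 groups in the fit. Above the glands was B1/P/Rbf tumor 1. The fit of only the 2 groups also called Hoxc4 lower in B1/P tumors (adjusted p = 0.0191). Hoxc9 was at 1.76, 2.68 and 2.10 CPM in the glands, 0.96, 1.03, 0.66, 1.14 and 1.69 in B1/P/Rbf, 0.25, 1.07, 0.65, 2.63 and 0.35 in B1/P and 0.40, 0.60, 0.61, 0.21 and 0.37 in P/Rbf tumors, so that B1/P tumor 4 alone was inside the gland range. The Hoxc9 call was lost in limma-voom (adjusted p = 0.1075).

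**Figure D3:**
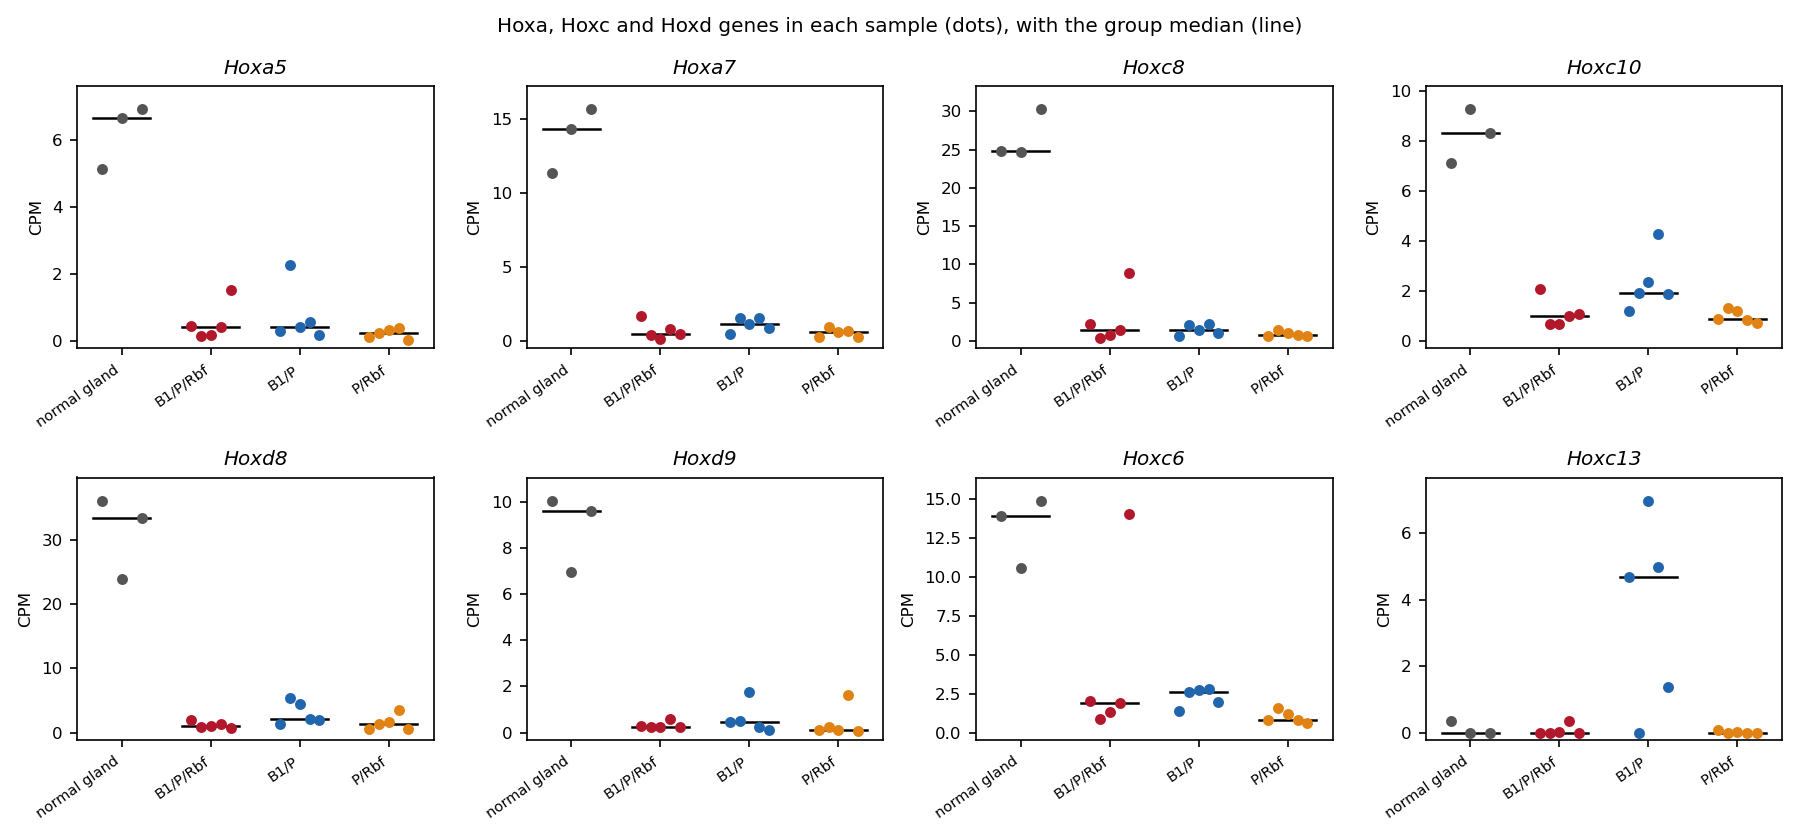
CPM (vertical axis, from 0, a scale of its own in each panel) of 8 Hoxa, Hoxc and Hoxd genes in each sample, by group (dots, in sample order) with the group median as a line. For Hoxa5, Hoxa7, Hoxc8, Hoxc10, Hoxd8 and Hoxd9 every tumor lies below every gland, B1/P/Rbf tumor 5 reaches the glands for Hoxc6, and Hoxc13 is above 1 CPM in 4 of 5 B1/P tumors and in no other sample.

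The Hoxb cluster (10 members, chr11:96194316-96368256, plus strand) had calls in its middle. Hoxb2, Hoxb3 and Hoxb4, hindbrain and neck genes of which Hoxb4 is also known for blood stem cell growth, lay on both sides of the gland's level and were not called. Hoxb5 to Hoxb8 fell in P/Rbf tumors, Hoxb5 and Hoxb6 also in B1/P tumors and Hoxb8 in B1/P/Rbf tumors. Hoxb4 was at 7.39, 8.15 and 8.53 CPM in the glands. It was at 9.05, 5.18, 5.21, 4.34 and 32.2 CPM in B1/P/Rbf, 0.83, 2.22, 6.61, 10.1 and 2.93 in B1/P and 7.85, 4.16, 13.2, 17.7 and 2.42 in P/Rbf tumors, so that 5 tumors were above all glands and 9 below all of them. Its log2 fold change was 0.48 (SE 0.80, adjusted p = 0.671), -0.82 (SE 0.78, adjusted p = 0.439) and 0.18 (SE 0.79, adjusted p = 0.878), which for B1/P/Rbf turned to -0.43 without tumor 5 and for P/Rbf to -0.21 without tumor 4.

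Hoxb2 was at 5.82, 5.37 and 6.20 CPM in the glands, 7.91, 5.45, 6.51, 6.77 and 23.2 in B1/P/Rbf, 0.70, 2.28, 8.24, 13.6 and 8.07 in B1/P and 5.35, 7.92, 10.2, 18.8 and 1.63 in P/Rbf tumors. Above all glands were 10 tumors and below all of them 4, and the fold changes were 0.78, 0.18 and 0.60 (adjusted p = 0.466, 0.879 and 0.576). Hoxb3 was at 8.29, 6.68 and 7.08 CPM in the glands, 7.32, 3.35, 4.99, 5.68 and 24.1 in B1/P/Rbf, 1.05, 2.58, 7.49, 13.8 and 7.57 in B1/P and 6.82, 2.24, 11.5, 11.8 and 1.50 in P/Rbf tumors, with fold changes of 0.31, -0.18 and -0.12 (adjusted p = 0.791, 0.886 and 0.921). The sign of these small values changed for Hoxb3 without TMM scaling in B1/P and P/Rbf tumors. Each of them was highest in B1/P/Rbf tumor 5, and B1/P tumor 1 was the lowest for each. With an SE of 0.78 to 0.80 on the log2 scale, a missing call does not show equal levels.

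Next to them, Hoxb5 was at 2.38, 2.52 and 2.44 CPM in the glands, 0.37, 0.84, 0.17, 0.36 and 1.95 in B1/P/Rbf, 0.45, 0.98, 0.50, 0.30 and 0.19 in B1/P and 0.35, 0.35, 0.56, 0.97 and 0.14 in P/Rbf tumors. All tumors were below all glands. Hoxb5 fell, with log2 fold changes of -2.33 (SE 0.72, adjusted p = 0.0186) in B1/P and -2.36 (SE 0.72, adjusted p = 0.0156) in P/Rbf tumors and had -1.74 (SE 0.71, adjusted p = 0.0638) in B1/P/Rbf tumors. The B1/P call was lost without gland 2 (adjusted p = 0.0520) or gland 3 (0.0513). Hoxb6 was at 3.36, 3.37 and 3.39 CPM in the glands, 1.45, 2.99, 0.55, 0.68 and 1.14 in B1/P/Rbf, 0.48, 1.24, 1.18, 0.77 and 0.41 in B1/P and 0.37, 0.41, 0.86, 0.47 and 0.44 in P/Rbf tumors. It was below all glands throughout and fell, with log2 fold changes of -2.04 in B1/P and -2.71 in P/Rbf tumors (adjusted p = 0.00766 and 9.17e-04), with -1.30 (SE 0.53, adjusted p = 0.0642) in B1/P/Rbf tumors. DESeq2 called both Hoxb5 and Hoxb6 lower in B1/P/Rbf tumors (adjusted p = 0.0414 and 0.0343) and Hoxb8 in B1/P tumors (0.0310). Hoxb8 was at 2.50, 2.98 and 3.08 CPM in the glands, 1.08, 0.76, 0.77, 0.41 and 0.39 in B1/P/Rbf, 0.38, 1.66, 0.78, 1.57 and 0.32 in B1/P and 0.46, 0.47, 0.94, 1.45 and 0.17 in P/Rbf tumors. No tumor reached a gland, and Hoxb8 fell, with log2 fold changes of -2.06 in B1/P/Rbf and -2.02 in P/Rbf tumors (adjusted p = 0.0176 and 0.0194). Both Hoxb8 calls were lost without gland 2 or gland 3 (adjusted p up to 0.0554 and 0.0613). Hoxb7 was at 3.99, 4.22 and 4.06 CPM in the glands, 1.05, 4.05, 0.66, 0.53 and 0.49 in B1/P/Rbf, 0.41, 1.98, 1.18, 3.73 and 0.66 in B1/P and 0.52, 0.41, 0.91, 1.40 and 0.31 in P/Rbf tumors. In P/Rbf tumors Hoxb7 fell by 2.52 (SE 0.77, adjusted p = 0.0158). With limma-voom and quantile normalization the P/Rbf calls of Hoxb5, Hoxb7 and Hoxb8 (adjusted p = 0.0803, 0.0555 and 0.120) and the B1/P/Rbf call of Hoxb8 (0.0638) were lost, which left Hoxb6 as the called Hoxb gene in P/Rbf tumors. Hoxb7 was not called in the other groups, where B1/P/Rbf tumor 2 was within the gland range and B1/P tumor 4 just below it. At the other end of the run, Hoxb9 was at 0.78, 0.82 and 0.88 CPM in the glands, 0.19 to 1.19 in B1/P/Rbf, 0.32 to 1.69 in B1/P and 0.41 to 2.42 in P/Rbf tumors, overlapping in each comparison, and was not called (adjusted p = 0.669, 0.956 and 0.512).

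The distance between Hoxb4 and Hoxb5 within a library, a measure chosen after these values were seen and given without a test, was 1.61 to 1.78 log2 units in the glands. It was 2.55 to 4.55 in B1/P/Rbf and 3.38 to 4.43 in P/Rbf tumors, above the glands in all 5 tumors of each group, and 0.81 to 4.84 in B1/P tumors, above them in 3 of 5. From Hoxb4 to Hoxb6 it was 1.122 to 1.318 in the glands, 0.78 to 4.76 in B1/P/Rbf (above the glands in 4 of 5, with 1 tumor below them), 0.72 to 3.62 in B1/P (3 of 5) and 2.30 to 5.06 in P/Rbf tumors (5 of 5). From Hoxb4 to Hoxb8 it was 1.43 to 1.54 in the glands, 2.67 to 6.17 in B1/P/Rbf (5 of 5), 0.41 to 3.00 in B1/P (3 of 5) and 2.99 to 3.93 in P/Rbf tumors (5 of 5). As a share of all CPM assigned to the 39 members, Hoxb2 to Hoxb4 made up 10.5% to 11.4% in the glands, 22.3% to 67.0% in B1/P/Rbf, 14.1% to 55.3% in B1/P and 44.9% to 72.3% in P/Rbf tumors. Members of paralog groups 5 to 8 made up 56.7% to 60.4% in the glands and 15.7% to 42.1% in the tumors.

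The promoter windows of a gene on either side of this step, Hoxb4 (chr11:96318017-96318266, plus strand) and Hoxb8 (chr11:96281655-96281904, plus strand), hold 14 and 12 CpG and a GC content of 58% and 44.4%. The letters of a TATA box (TATAAA, searched on both strands) occur 2 times in the Hoxb8 window and not in that of Hoxb4. Both matches are on the strand opposite to the gene, so the printed letters read TTTATA, and neither lies next to the start. Whether they act as a TATA box was not tested. A match on either strand is found in 12.4% of all windows of this length, and no match says only that these letters are not in the window.
Hoxb4: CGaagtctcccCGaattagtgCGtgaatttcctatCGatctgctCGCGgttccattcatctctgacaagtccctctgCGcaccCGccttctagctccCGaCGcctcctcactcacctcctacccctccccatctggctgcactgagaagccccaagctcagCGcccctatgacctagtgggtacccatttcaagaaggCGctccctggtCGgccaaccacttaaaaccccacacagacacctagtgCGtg
Hoxb8: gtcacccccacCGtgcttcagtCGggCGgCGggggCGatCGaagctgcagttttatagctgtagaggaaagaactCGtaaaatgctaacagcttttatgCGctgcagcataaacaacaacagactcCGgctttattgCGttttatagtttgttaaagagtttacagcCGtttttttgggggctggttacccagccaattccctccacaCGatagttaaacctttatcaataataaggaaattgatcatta

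**Figure D4:**
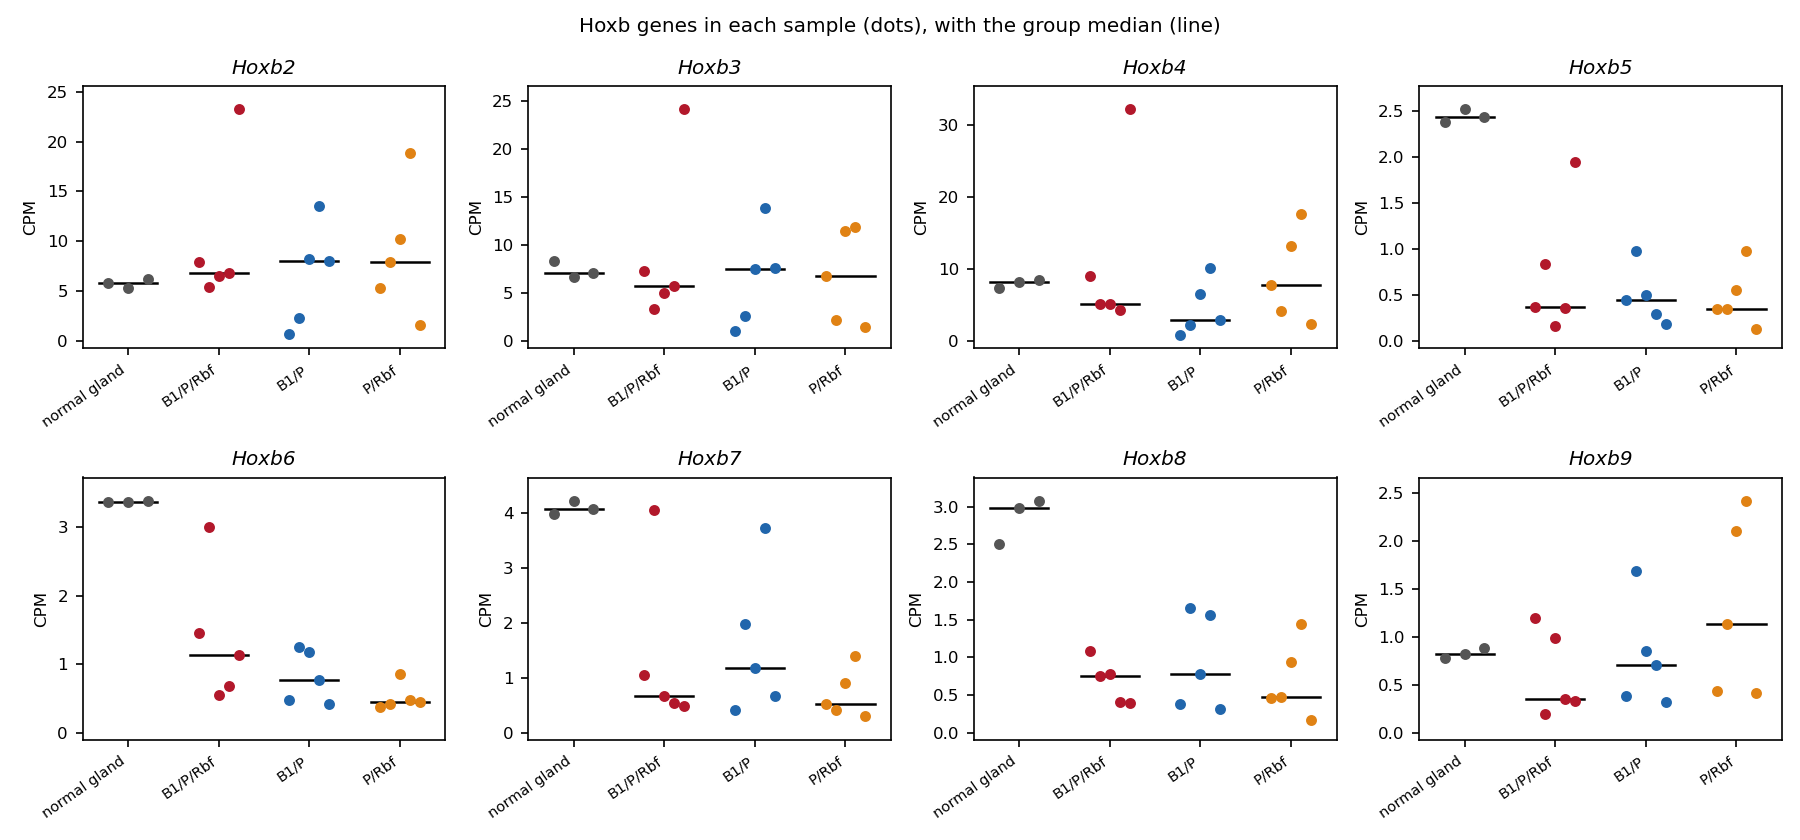
CPM (vertical axis, from 0, a scale of its own in each panel) of Hoxb2 to Hoxb9 in each sample, by group (dots, in sample order) with the group median as a line. Tumors lie around the glands for Hoxb2, Hoxb3, Hoxb4 and Hoxb9, with B1/P/Rbf tumor 5 the highest for Hoxb2 to Hoxb4, and lie below all glands for Hoxb5, Hoxb6 and Hoxb8.

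Read across clusters, the calls differed between paralogs of 1 group. In paralog group 4, Hoxa4 and Hoxd4 fell in all 3 tumor groups, Hoxc4 in P/Rbf tumors and Hoxb4 in none. Hoxa4 passed the filter only through the glands, where it is high, so its fall gives no support here. In group 8, Hoxc8 and Hoxd8 fell in all 3 and Hoxb8 in the B1/P/Rbf and P/Rbf groups. In group 9, Hoxd9 fell in all 3, Hoxa9 in B1/P and P/Rbf tumors, Hoxc9 in P/Rbf tumors and Hoxb9 in none. Differences between paralogs were not tested, and in B1/P tumors the uncalled Hoxb8 (-1.60 (SE 0.64, adjusted p = 0.0616)) and Hoxc4 (-2.17 (SE 1.01, adjusted p = 0.108)) also had all 5 tumors below all glands. The same held in B1/P/Rbf tumors for the uncalled Hoxa9 (-2.37 (SE 0.96, adjusted p = 0.0623)) and Hoxc9 (-0.99 (SE 0.61, adjusted p = 0.216)). By cluster, the members called lower in P/Rbf tumors were 8 of 9 tested in Hoxa, 4 of 8 in Hoxb, 6 of 8 in Hoxc and 3 of 4 in Hoxd; in B1/P/Rbf tumors they were 6, 1, 3 and 3, and in B1/P tumors 4, 2, 4 and 3. Of all tested genes 20.3%, 20.0% and 16.9% were called lower in this order, so that Hoxb in B1/P/Rbf (1 of 8) and B1/P tumors (2 of 8) was near or below that share. The Hoxa counts include calls of Hoxa2, Hoxa4 and Hoxa6, which passed the filter only through the glands.

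Between tumor groups few members were called, near or below the share of all tested genes. B1/P tumors without T121 were compared with B1/P/Rbf tumors, which add it, and with P/Rbf tumors, which add it and have no floxed Brca1. In B1/P/Rbf against B1/P tumors 1 of 29 members fell and none rose, where 9.29% of all tested genes were called lower and 7.36% higher. In P/Rbf against B1/P tumors 3 fell and none rose, where 10.8% were called lower and 8.43% higher. No member was lower or higher without overlap in either comparison. Of all tested genes 5.48% and 5.11% were lower without overlap and 5.00% and 3.74% higher. The members' median log2 fold change was -0.44 and -0.83 in these comparisons, with 17 and 24 of 29 below 0. For all tested genes the median was -0.06 and -0.05. In B1/P/Rbf against P/Rbf tumors the members' median was 0.45, with 7 of 29 below 0, against -0.01 for all tested genes. These shifts of the members as a set were not tested. The P/Rbf tumors differ from B1/P/Rbf tumors in floxed Brca1, and in B1/P/Rbf against P/Rbf tumors no member was called by edgeR, 5 of 29 had an unadjusted p under 0.05 (16.1% of all tested genes did), and DESeq2 and limma-voom also called 0; 0.0625% of all tested genes were called lower and 0.219% higher. Hoxc9 was the only member whose values did not overlap between these groups (0.66 to 1.69 against 0.21 to 0.61 CPM). Its log2 fold change was 1.31 (SE 0.56, adjusted p = 0.254), and without overlap 1.71% of all tested genes were higher in B1/P/Rbf tumors and 1.31% higher in P/Rbf tumors.

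The member called in both comparisons was Hoxc13, the 5′-most gene of its cluster and a regulator of hair and nail keratins. Hoxc13 was at 4.67, 0, 6.99, 5.00 and 1.39 CPM in B1/P tumors 1 to 5, so 4 of 5 were above 1 CPM and tumor 2 had no count. In B1/P/Rbf tumors it had 0, 0, 1, 14 and 0 counts, in P/Rbf tumors 3, 0, 1, 0 and 0 and in the glands 9, 0 and 0. The 5 B1/P tumors together had 638 counts, and their pooled level (summed counts over summed library size) was 44.6 times that of the B1/P/Rbf tumors (95% exact interval 26.8 to 80.2) and 162 times that of the P/Rbf tumors (63.0 to 597), intervals that cover counting error only. These ratios rest on single libraries. Without B1/P/Rbf tumor 4, which holds 14 of that group's 15 counts, the first was 521.5 (93.3 to 20630; 1 count left), and without P/Rbf tumor 1 the second was 518 (92.7 to 20510; 1 count left), alternatives chosen after seeing the data. Adjusted p was 0.0235 and 0.0101, for a gene that passed the filter only through the B1/P tumors, where it is high. The first call was lost without B1/P/Rbf tumor 2, 3 or 5 (highest adjusted p = 0.0555), and limma-voom with quantile normalization gave neither call (adjusted p = 0.0568 and 0.0505). Against the glands the B1/P tumors were at 35.6 times (18.6 to 78.3), or at least 74.9-fold higher than a floor of 3 counts over the other 2 glands without gland 1, which holds all 9 gland counts, and did not pass the test (adjusted p = 0.0545), but were called higher by DESeq2 and without TMM scaling. The summed basal and myoepithelial markers were 402 to 2247 CPM in B1/P tumors, lowest in tumor 2, against 65.0 to 352 in B1/P/Rbf and 87.2 to 1463 in P/Rbf tumors. Of the 8 markers, Trp63 and Oxtr were called lower in both T121 groups than in B1/P tumors. With each of 10 samples left out in turn, the Trp63 calls were kept in 3 (B1/P/Rbf) and 4 cases (P/Rbf) and the Oxtr calls in all 10. Both Trp63 calls were also lost in limma-voom and with only the 2 groups in the fit. The part of these markers in the Hoxc13 difference was not tested. Hoxc11, between Hoxc13 and Hoxc10, was under 1 CPM throughout, at 0.064, 0.21, 0.38, 0.65 and 0.19 CPM in B1/P tumors and at most 0.33 CPM elsewhere, and was not called, but limma-voom and the fit without TMM scaling called it higher in B1/P tumors than in glands, for a gene tested only because tumors reached the filter.

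Hoxa3 and Hoxc10 were called lower in P/Rbf than in B1/P tumors. Hoxc10 (0.99 ± 0.25 against 2.32 ± 1.16 CPM, SD, n = 5 each) fell by 1.22 (SE 0.40, adjusted p = 0.0414), with 4 of 5 P/Rbf tumors below every B1/P tumor. The call was lost without B1/P tumor 3 or 4 or P/Rbf tumor 1, 3, 4 or 5 (adjusted p up to 0.115), and in limma-voom (0.294), with no filter and with only the 2 groups in the fit. Hoxa3 (0.39 ± 0.14 against 1.93 ± 2.52 CPM) fell by 2.28 (SE 0.71, adjusted p = 0.0341), with 2 of 5 P/Rbf tumors below every B1/P tumor. Without B1/P tumor 2, in which Hoxa3 is at the gland level, the fold change was -1.08 and the call was lost (adjusted p = 0.178); it was also lost without B1/P tumor 4 or P/Rbf tumor 1, 2, 4 or 5, in limma-voom (0.416), with no filter and with only the 2 groups in the fit. The antisense gene Hoxaas3, which lies across Hoxa3 and Hoxa7, in this comparison also fell by 2.95 (SE 0.78, adjusted p = 0.0147). Of its 34 counts in B1/P tumors 20 are in tumor 2, without which the log2 fold change was -2.02 (adjusted p = 0.0460), and limma-voom did not call it (0.290). Of 9 fibroblast markers 5 were called lower in P/Rbf than in B1/P tumors, and their part in these differences was not tested.

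Some members were high in a single tumor. B1/P/Rbf tumor 4 had 357 counts of Hoxa11 (9.06 CPM) and 364 of Hoxa13 (9.23 CPM), genes of the limb and the urogenital tract at the 5′ end of Hoxa. The glands had no count of either. Of the other 17 samples, 16 had 3 counts or fewer of Hoxa11 and 15 of Hoxa13. The next highest samples were P/Rbf tumor 3 for Hoxa11 (17 counts, 0.43 CPM) and B1/P/Rbf tumor 1 for Hoxa13 (24 counts, 0.68 CPM). Against the highest gland floor of 3 counts, tumor 4 was at least 77.2-fold higher for Hoxa11 and at least 78.8-fold higher for Hoxa13. It was also the highest sample for Hoxa10 (14.6 CPM, against 5.12 to 7.48 in the glands) and the highest tumor for Hoxa9 (6.75 CPM), while Hoxa7 (0.79 CPM) and Hoxa2 to Hoxa6 were at the level of the other tumors. With no filter on low counts Hoxa13 was called higher in B1/P/Rbf tumors than in glands and B1/P tumors; the pattern rests on 1 mouse and has no replicate. The Hoxa13 promoter window (chr6:52260881-52261130, minus strand) is among the most CpG-rich, with 35 CpG and 80% GC, and 97.0% of all windows hold fewer CpG.
Hoxa13: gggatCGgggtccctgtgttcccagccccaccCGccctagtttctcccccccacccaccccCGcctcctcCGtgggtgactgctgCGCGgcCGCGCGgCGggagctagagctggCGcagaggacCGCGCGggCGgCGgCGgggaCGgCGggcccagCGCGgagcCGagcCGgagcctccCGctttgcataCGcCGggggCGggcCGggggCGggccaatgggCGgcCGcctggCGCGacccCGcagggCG

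Noncoding neighbours were high in that tumor too. Hoxa11os, transcribed across Hoxa11 on the other strand, had 317 counts in B1/P/Rbf tumor 4 (8.04 CPM) and at most 0.16 CPM in the glands. Hottip, which begins beside Hoxa13, had 40 counts there (1.01 CPM). Evx1, a homeobox gene just beyond Hoxa13, was high in that tumor and in several others. It had 226, 4, 37, 316 and 65 counts in B1/P/Rbf tumors 1 to 5, 335, 1, 168, 0 and 64 in P/Rbf tumors, 1, 2, 0, 0 and 1 in B1/P tumors and none in the glands. Evx1 was higher than in B1/P tumors in both B1/P/Rbf (3.53 ± 3.48 against 0.025 ± 0.025 CPM, adjusted p = 0.0132) and P/Rbf tumors (3.22 ± 3.99 CPM, adjusted p = 0.0131), though P/Rbf tumors 2 and 4 had 1 and 0 counts. Both calls were lost in limma-voom with quantile normalization. Evx1 passed the filter through these 2 groups alone, where it is high, so that its direction against the others gives no support.

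**Figure D5:**
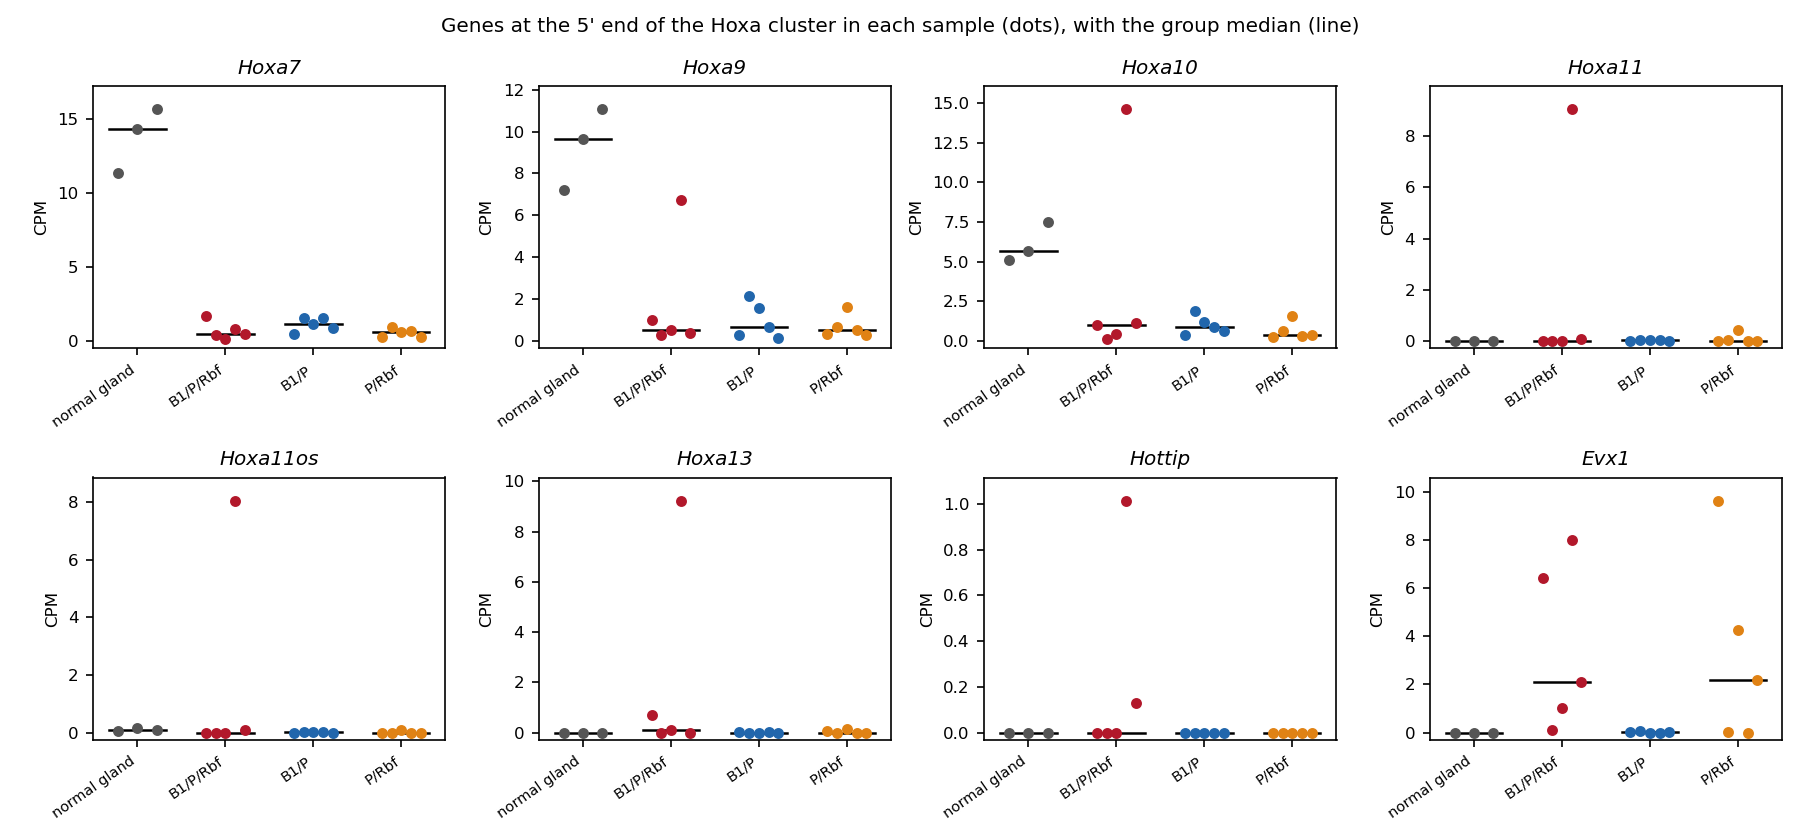
CPM (vertical axis, from 0, a scale of its own in each panel) of the genes at the 5′ end of Hoxa in each sample, by group (dots, in sample order) with the group median as a line. B1/P/Rbf tumor 4 is the highest sample for Hoxa10, Hoxa11, Hoxa11os, Hoxa13 and Hottip, not for Hoxa7, and Evx1 is present in several B1/P/Rbf and P/Rbf tumors.

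Hoxb13, known from the prostate and hindgut, had 113 counts in B1/P tumor 4 (3.34 CPM), 15 in B1/P/Rbf tumor 4 and none in the glands, and 15 of the 17 other samples had 3 counts or fewer. B1/P tumor 4 also had the highest tumor values of Hoxc9 (2.63 CPM), Hoxc10 (4.26 CPM) and Hoxc11 (0.65 CPM). B1/P/Rbf tumor 5 had the highest summed Hox level of the tumors, 119 CPM over the 39 members, of which 79.6 CPM were Hoxb2 to Hoxb4. P/Rbf tumor 5 had the lowest, 12.4 CPM, and the glands had 177 to 208 CPM.

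The noncoding genes of the clusters were followed with the members. Of 17 in the file, 5 passed the filter, Hoxd3os1, Hotairm1 and Hoxaas3 only through the glands, where they are high, and Halr1 through 2 B1/P tumors and 1 gland. The fall of the first 3 against the gland therefore gives no support of its own. Hoxd3os1, antisense with exons over those of Hoxd3 and Hoxd4, was at 2.03, 1.47 and 1.90 CPM in the glands and at most 0.39 CPM in tumors, and in the 3 tumor groups fell, with log2 fold changes of -5.81, -3.27 and -4.13 (adjusted p = 3.57e-04, 0.0106 and 0.00242). Hotairm1, a noncoding gene of the Hoxa cluster, in B1/P/Rbf and P/Rbf tumors fell, with log2 fold changes of -3.03 and -2.97 (adjusted p = 0.00527 and 0.00571), and Hoxaas3 and Halr1 fell in P/Rbf tumors (adjusted p = 8.44e-04 and 0.0312). With each of 8 samples left out in turn, the Halr1 call was kept in 1 case (adjusted p up to 0.121). In limma-voom the P/Rbf calls of Halr1 and Hotairm1 were lost. Hoxb3os, antisense across Hoxb2 and Hoxb3, was at 7.82, 7.92 and 6.36 CPM in the glands, 3.52, 2.37, 3.94, 4.97 and 15.6 in B1/P/Rbf, 0.54, 0.47, 4.52, 3.64 and 1.86 in B1/P and 3.31, 5.55, 7.09, 14.3 and 0.51 in P/Rbf tumors and was not called. Hotair, the noncoding gene of the Hoxc cluster known from breast cancer, had at most 3 counts in a sample. Exons of 10 members overlap an antisense gene. The libraries were stranded, but whether counting used the strand was not given in the sources used here, so reads of such pairs may not be fully told apart.

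Hox proteins bind DNA with Pbx, Meis and Pknox cofactors, and all 9 of these genes were tested. Pbx3 rose against the gland in all 3 tumor groups, from 4.54 ± 0.20 CPM (SD, n = 3) to 20.7 ± 16.4, 18.6 ± 7.89 and 26.9 ± 16.3 CPM (adjusted p = 0.0131, 0.0205 and 0.00533). Meis2 fell, with log2 fold changes of -3.74 in B1/P/Rbf and -2.75 in B1/P tumors (adjusted p = 0.00732 and 0.0361), and Pknox2 fell, with log2 fold changes of -3.58 in B1/P/Rbf and -4.76 in P/Rbf tumors (adjusted p = 0.00566 and 9.14e-04). Pknox1 rose in both T121 groups against the gland and against B1/P tumors, where its values did not overlap (31.7 to 44.5 and 35.4 to 49.6 against 22.4 to 26.0 CPM; adjusted p = 0.00843 and 0.00251). In P/Rbf against B1/P tumors, Pknox2 fell by 2.57 (SE 0.83, adjusted p = 0.0398) and Meis1 rose by 2.47 (SE 0.66, adjusted p = 0.0157), with overlap. Both calls were lost with only the 2 groups in the fit. With each of 10 samples left out in turn, the Pknox2 call was kept in 4 cases (adjusted p up to 0.106). Against the gland, the B1/P calls of Meis2 and Pbx3 were kept in 2 and 5 of 8 such cases, and that of Meis2 was lost without TMM scaling.

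Of 22 chromatin regulators known for Hox clusters, 9 rose and 2 fell in B1/P/Rbf, 10 rose and 3 fell in B1/P, and 9 rose and 1 fell in P/Rbf tumors against the gland, where 17.1%, 16.8% and 17.4% of all tested genes were called higher and 20.0%, 16.9% and 20.3% lower. Ezh2, the catalytic subunit of Polycomb complex 2, rose from 21.1 to 24.5 CPM in the glands to 74.4 to 125, 66.2 to 92.7 and 45.8 to 124 CPM (by 2.24, 1.79 and 2.12; adjusted p = 2.00e-05, 1.71e-04 and 3.27e-05). Cbx2, a reader subunit of Polycomb complex 1, rose by 2.61, 2.67 and 2.76 (adjusted p = 1.41e-05, 1.61e-05 and 8.77e-06). Kmt2a, the Trithorax methyltransferase that maintains Hox expression, also rose, by 0.99, 0.78 and 0.82 (adjusted p = 0.0134, 0.0444 and 0.0330), as did the H3K27 demethylase Kdm6b and the Polycomb genes Pcgf2 and Phc2. With each of 8 samples left out in turn, the Kmt2a call was kept in 6, 1 and 4 cases (adjusted p up to 0.0699, 0.178 and 0.130). In B1/P and P/Rbf tumors limma-voom also lost it. Kmt2b and Suz12 rose in the T121 groups, Phc1 in B1/P/Rbf and B1/P, Cbx8 in B1/P and P/Rbf, and Men1 and Cbx6 in B1/P tumors. Ring1, a ubiquitin ligase subunit of Polycomb complex 1, fell in the 3 groups, with log2 fold changes from -0.96 to -1.24 (adjusted p = 0.00958, 0.00844 and 0.00157). Without TMM scaling its calls in B1/P/Rbf and B1/P tumors were lost. Phc3 also fell in B1/P/Rbf, and Ezh1 and Jarid2 in B1/P tumors. Against B1/P tumors, Suz12 rose in both T121 groups (by 0.90 and 1.08; adjusted p = 0.00616 and 0.00229) and Jarid2 rose and Cbx8 fell in B1/P/Rbf tumors (adjusted p = 0.00193 and 0.0286). Men1 and Phc1 fell in P/Rbf tumors (adjusted p = 0.0490 and 0.0315). With each of 10 samples left out in turn, these calls of Cbx8, Men1 and Phc1 were kept in 5, 2 and 6 cases. Each was also lost with no filter and with only the 2 groups in the fit, and that of Cbx8 in limma-voom.

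Genes flanking the clusters were called in both directions. Against the gland in P/Rbf tumors, 3 of 9 tested neighbours of Hoxa rose and 1 fell, 3 of 10 of Hoxb rose and 4 fell, 2 of 9 of Hoxc rose and 3 fell, and 1 of 8 of Hoxd rose and 2 fell. The counts were 4 and 1, 2 and 4, 2 and 4, and 1 and 2 in B1/P/Rbf and 1 and 1, 0 and 4, 3 and 1, and 1 and 1 in B1/P tumors. With 17.4% of all tested genes called higher and 20.3% lower in P/Rbf, 17.1% and 20.0% in B1/P/Rbf and 16.8% and 16.9% in B1/P tumors, several of these counts are near the share of all genes, and nothing is read from them. Beside Hoxa, Cbx3 rose and Hibadh fell in all 3 groups, Creb5 rose in the T121 groups with Evx1, and Hnrnpa2b1 rose in B1/P/Rbf tumors. Beside Hoxb, Atp5g1 and Nfe2l1 fell in all 3 groups, Snf8 in B1/P/Rbf and B1/P and Copz2 in the T121 groups, where Ube2z and Cbx1 rose (Cbx1 by 0.99 and 1.21; adjusted p = 0.0104 and 0.00286). Skap1, the gene next to Hoxb1, was at 17.4 to 25.6 CPM in the glands and in B1/P and P/Rbf tumors fell, with log2 fold changes of -4.38 and -4.92 (adjusted p = 0.00607 and 0.00266), and Igf2bp1 rose in P/Rbf tumors. Beside Hoxc, Itga5 and Cbx5 rose and Atp5g2 fell in all 3 groups, Zfp385a and Calcoco1 fell in the T121 groups, Copz1 fell in B1/P/Rbf and Hnrnpa1 rose in B1/P tumors. Beside Hoxd, Hnrnpa3 rose and Atp5g3 fell in all 3 groups, and Agps fell in the T121 groups. Against B1/P tumors, Skap2 beside Hoxa rose in both T121 groups and Zfp385a fell in both, Copz2, Copz1 and Agps fell in B1/P/Rbf and Igf2bp1 rose in P/Rbf tumors.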

How the data were processed

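RNA from 15 mammary tumors and 3 normal glands, 1 stranded library per mouse, was sequenced. The authors deposited expected counts per gene for all samples in one table, made with RSEM 1.3.0 per the submitters' processing notes, which also name FastQC 0.11.5, cutadapt 1.18, Picard 1.119 and DESeq2 1.28.1. These notes list mm10 beside human builds, and all 55450 gene IDs matched the GENCODE M21 annotation (GRCm38). Counts were rounded, genes were kept by filterByExpr (minimum count 10), and TMM-scaled values were tested in edgeR 4.0.16 (quasi-likelihood, all 18 samples, a group term) with R 4.3.3. P-values were adjusted by Benjamini-Hochberg over 19186 genes in each of 6 comparisons, and genes at 0.05 or less were called. Log2 fold changes are those of the edgeR fit, and CPM values use the TMM library sizes. Sample groups came from the labels, and replicate numbers are names only. One member and 1 cofactor gene are in the counts but are not reported here. Values are given per sample for the other members called in a comparison with a group mean of at least 1 CPM in it, and genes of the other lists are named where called. The members and gene lists were chosen with earlier results of these data known. Alternatives were DESeq2 1.42.0, limma-voom (limma 3.58.1) with quantile normalization, no TMM, no or a stricter filter, fits of 2 groups, and leaving out each sample. The edgeR steps were tested on simulated data. Promoters came from RefSeq (GRCm38.p6). Total counts of 27661173 to 37794889 per sample set the precision, which for low members is a few counts.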

Additional observations from a re-analysis of the deposited data

Results flagged for a closer look

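Within tumor groups of 5, a single library stood outside the others by Dixon's test for 5 of 87 gene and group pairs, where chance gives about 1 in 20. In B1/P/Rbf tumors these were Hoxb2 in tumor 5 (log2 CPM 4.542, 23.2 CPM), Hoxc13 in tumor 4 (log2 CPM -1.271, 0.355 CPM) and Hoxd9 in tumor 4 (log2 CPM -0.6381, 0.583 CPM). In P/Rbf tumors they were Hoxb6 in tumor 3 (log2 CPM -0.1208, 0.861 CPM) and Hoxc4 in tumor 3 (log2 CPM 1.859, 3.57 CPM). Each was the highest of its group. Causes were not tested.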

How the results depend on the processing

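Of 51 called differences, 229 of 248 values under other methods kept the call, 19 kept the direction and lost the call, and none reversed. Leaving out 1 sample kept 364 of 416 calls, lost 52 and reversed none. Against the gland, 13 members were called in B1/P/Rbf tumors (10 to 15 when a sample was left out), 13 in B1/P tumors (10 to 18) and 21 in P/Rbf tumors (17 to 21). Under other methods 12 to 15, 12 to 15 and 16 to 21 were called lower, the 16 by limma-voom, and those called higher were Hoxa13 in B1/P/Rbf (no filter) and, in B1/P tumors, Hoxc13 (DESeq2, no TMM) and Hoxc11 (limma-voom, no TMM). For B1/P/Rbf against B1/P the 1 member called became 4 with DESeq2 (Hoxa3, Hoxc10 and Hoxd8 added, as lower), 0 with limma-voom and 2 with no filter (Hoxa13 added, as higher), and 0 to 3 without single samples. For P/Rbf against B1/P the 3 became 4 with DESeq2 (Hoxa4 added), 0 with limma-voom, 1 with no filter, 0 with only the 2 groups (22 members tested) and 1 to 4 without single samples. For B1/P/Rbf against P/Rbf it stayed 0. Calls that other methods added were, besides those above, Hoxa9, Hoxb5 and Hoxb6 (DESeq2), Hoxa9 and Hoxc6 (limma-voom) and Hoxd10 (only the 2 groups) in B1/P/Rbf and Hoxb8 (DESeq2), Hoxa3 and Hoxa10 (limma-voom) and Hoxa10 and Hoxc4 (only the 2 groups) in B1/P tumors, all lower than the gland. Sign changes of uncalled values were followed for Hoxb2, Hoxb3, Hoxb4 and Hoxb9 against the gland, and each changed sign in at least 1 group. Hoxb3 in B1/P tumors was -0.18, 0.19 with no TMM and -0.65 to 0.10 without single samples. Hoxb9 in B1/P tumors was -0.06, 0.29 with limma-voom and 0.29 with no TMM, and -0.54 to 0.14 without single samples. Hoxb3 in P/Rbf tumors was -0.12, 0.20 with limma-voom, 0.18 with no TMM and -0.42 to 0.14 without single samples. Without single samples Hoxb3 and Hoxb4 in B1/P/Rbf tumors ranged from -0.46 to 0.52 and from -0.43 to 0.69, Hoxb2 in B1/P tumors from -0.26 to 0.47 and Hoxb4 in P/Rbf tumors from -0.21 to 0.42. The cause was not tested. Without TMM, all tested genes called higher and lower went from 3273 and 3835 to 5122 and 2887 in B1/P/Rbf, from 3232 and 3249 to 5126 and 2440 in B1/P, and from 3333 and 3897 to 4720 and 3159 in P/Rbf tumors against the gland. DESeq2 gave no adjusted p for Hoxa10, Hoxc6 and Hoxc8, and the stricter filter left no member to test. No paired analysis was possible because the labels give mouse numbers and no replicate number shared by groups. Low members are limited by depth, since 1 to 3 counts cannot be told from 0. Of 123 called differences of the cofactor, chromatin, noncoding and flanking genes over the 6 comparisons, 42 lost the call without at least 1 sample, among them Kmt2a in each tumor group against the gland, and none changed sign. Other methods lost some of these calls too, such as Ring1 in B1/P/Rbf and B1/P tumors without TMM scaling.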
